A study of Mus musculus with 2 samples.

Results

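The levels of 10 genes that write, keep, remove or protect DNA methylation were measured in mouse embryonic stem cells labelled as lacking Ago1 and Ago2. The genes were a list fixed by name (Dnmt1, Dnmt3a, Dnmt3b, Dnmt3l, Uhrf1, Tet1, Tet2, Tet3, Tdg and Zfp57), matched by symbol, and all 10 were found among the 47643 genes of the count files. The cells were of the E14 line on a 129/Ola background, derived from blastocysts. They were kept in medium with 15% serum and 100 U/mL LIF, the cytokine that sustains self-renewal, on dishes coated with 0.2% gelatine. The series holds 1 group of 2 polyA RNA libraries, called replicate 1 and replicate 2 by the numbers in their labels. Each library is labelled as carrying both gene knockouts, no parental E14 cells were analysed here, and no value below is an effect of the knockouts. Whether they were grown as separate cultures or clones is not stated in the labels, so all spreads and p-values describe these libraries only and may be technical.

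DNA methylation in mammals is set on cytosines of CpG pairs by the DNMT3 enzymes, copied after replication by DNMT1 with its partner UHRF1, and oxidised by the TET enzymes. Oxidised bases can be lost through replication or be cut out by the glycosylase TDG. Embryonic stem cells are known to express writers and erasers together, and ZFP57, a zinc finger protein, guards the methylation of imprinted regions in them. Ago1 and Ago2 encode Argonaute proteins, through which microRNAs repress messenger RNAs.

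Replicate 1 held 34798975 counts in all and replicate 2 held 29789560. The targeted genes still had reads: Ago1 stood at 70.8 and 141 CPM (counts-per-million, of the library total) and Ago2 at 124 and 129 CPM in replicates 1 and 2. Counts summed over all exons do not show whether an exon was edited, so they check no genotype label, and the knockouts rest on the labels alone. The chi-square per degree of freedom between the libraries was 9.83 over 19078 genes, more than sampling noise, and they were kept as separate samples. All 8 embryonic stem cell markers were above 1 TPM (transcripts-per-million, counts divided by exon length and scaled to a common sum), with Pou5f1, the gene of Oct4, at 1748 and 1627 TPM. Of the 8 fibroblast markers, 4 (Col3a1, Lum, Postn and Fap) had no count in either library, and the list summed to 23.7 and 22.5 TPM, nearly all from Thy1. The 8 extraembryonic endoderm markers summed to 5.11 and 3.87 TPM and the 8 trophoblast markers to 39.0 and 46.3 TPM. Of the trophoblast sum, Tfap2c alone gave 30.2 and 38.9 TPM, and Tpbpa had no count. The 7 primed epiblast markers, among them Dnmt3b, summed to 346 and 299 TPM, with 5 above 1 TPM in both libraries. Most of that sum came from Lefty2 (157 and 110 TPM) and Dnmt3b (154 and 160.0 TPM), followed by Otx2 (29.4 and 23.4 TPM). Fgf5 stayed below 1 TPM and Cer1 had no count. In bulk RNA, fewer cells of a type and less RNA per cell cannot be told apart.

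Since Argonaute proteins act through short pairing between microRNA and transcript, the seed matches in the 10 transcripts are shown first. The miR-29 family was searched because its seed pairs with DNMT3 and TET transcripts, and the miR-290 and miR-302 families because they share a seed and are abundant microRNAs of mouse embryonic stem cells. None was measured in these polyA libraries. The mature sequences, from RefSeq (GRCm38.p6), have the seed (bases 2 to 8) in capitals and fall into 2 groups by shared seed:
miR-29a-3p: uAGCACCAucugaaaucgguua
miR-29b-3p: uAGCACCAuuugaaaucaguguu
miR-29c-3p: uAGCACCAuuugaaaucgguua
miR-291a-3p: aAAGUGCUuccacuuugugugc
miR-294-3p: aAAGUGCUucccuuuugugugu
miR-295-3p: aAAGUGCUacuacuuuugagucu
miR-302b-3p: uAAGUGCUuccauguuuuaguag
miR-302d-3p: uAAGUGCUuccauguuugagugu

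A match to bases 2 to 8 reads TGGTGCT for miR-29 and AGCACTT for miR-290 and miR-302 in the transcript. Only the transcript strand was searched, in the longest annotated 3′ UTR of each gene, and no match of one family overlapped a match of the other. The miR-29 match occurred 29 times in 6 of the 10 genes. There were 8 matches in Tet3, 7 in Tet1, 5 in Tet2, 5 in Dnmt3a, 3 in Tdg and 1 in Dnmt3b. None was found in Dnmt1, Uhrf1, Dnmt3l or Zfp57, whose 3′ UTRs are 312, 984, 273 and 114 bases long. The miR-290 and miR-302 match occurred 6 times, in the TET genes only among the 10: 3 in Tet3, 2 in Tet1 and 1 in Tet2. Long 3′ UTRs hold it often: among genes of like 3′ UTR length (within 10%), 58.8% held it at the length of Tet1, 58.1% at that of Tet3 and 31.7% at that of Tet2. The share was 61.5% at the length of Dnmt3a, which held none. Over the 14668 genes with a 3′ UTR and at least 10 counts, 14.8% held the miR-29 match and 16.5% the miR-290 and miR-302 match. The miR-29 match was also frequent in long 3′ UTRs: among genes whose 3′ UTR was within 10% of the length of that of Tet1 (7962 bases), 51.5% held a miR-29 match. The share was 42.6% at the length of Tet3 (5669 bases), 28.2% at that of Tet2 (3058 bases) and 50.6% at that of Dnmt3a (6696 bases). It was 20.5% at the length of Tdg (2079 bases) and 13.3% at that of Dnmt3b (1331 bases). A match is a description of letters and not a measured binding site.

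The miR-29 matches followed by A, the longest kind of pairing searched, numbered 8 and are shown in 30 bases each with the match in capitals, together with the only match in Dnmt3b, which is not followed by A. All lie in 3′ UTRs on GRCm38 and are written 5′ to 3′ on the gene's strand, from GENCODE M21 transcripts:
Dnmt3a, chr12:3911390-3911419, plus strand: cccaggggaggtagcTGGTGCTagcaccag
Dnmt3a, chr12:3911459-3911488, plus strand: agcggggtcccaagcTGGTGCTaattcctc
Dnmt3b, chr2:153686612-153686641, plus strand: tagagtagcccggcaTGGTGCTcatgttct
Tet1, chr10:62806035-62806064, minus strand: gtttcttgaaggagaTGGTGCTagctgaac
Tet2, chr3:133466166-133466195, minus strand: ggtgttaacattaaaTGGTGCTacaaatgg
Tet2, chr3:133465109-133465138, minus strand: aaattcacatcacgaTGGTGCTacccagat
Tet3, chr6:83364329-83364358, minus strand: aaatagtctaataaaTGGTGCTatggtgtt
Tet3, chr6:83363770-83363799, minus strand: aaggccgcttttagtTGGTGCTaaacttct
Tdg, chr10:82649662-82649691, plus strand: ctcatgcattttccaTGGTGCTacagacag

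The miR-290 and miR-302 matches of the TET genes are shown in the same way, since no other gene of the list held one:
Tet1, chr10:62811878-62811907, minus strand: gtatatattttaaaaAGCACTTtctacttt
Tet1, chr10:62805022-62805051, minus strand: gaggaaaatagttaaAGCACTTcatgacat
Tet2, chr3:133465907-133465936, minus strand: gttgtgtcttagaaaAGCACTTtgcctacc
Tet3, chr6:83367836-83367865, minus strand: ctcctcttcttccccAGCACTTtgaagaaa
Tet3, chr6:83366204-83366233, minus strand: tgaaagatttttttaAGCACTTttgcctag
Tet3, chr6:83363402-83363431, minus strand: tttgaaaatctacgcAGCACTTggtttatc

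**Figure D1:**
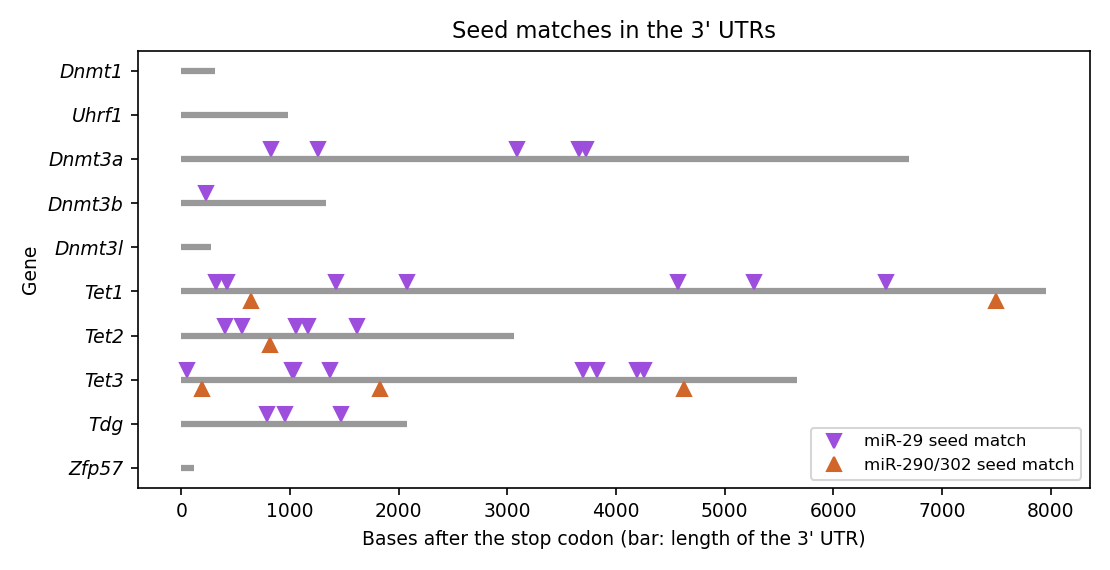
Position of seed matches along the longest annotated 3′ UTR of each gene, in bases after the stop codon; grey bars give the length of the 3′ UTR, downward triangles miR-29 matches and upward triangles miR-290 and miR-302 matches. The 29 miR-29 matches lie in 6 genes, the 6 miR-290 and miR-302 matches lie in the TET genes, and the 4 genes without a match have 3′ UTRs of 114 to 984 bases.

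The first question was how much of each transcript the cells held. All 10 genes were expressed, the least count of any of them in a library was 642, and 6 of them exceeded 100 TPM in both libraries. Together they summed to 1305 TPM in replicate 1 and 1327 TPM in replicate 2. Levels below are in TPM on the union of all annotated exons, given for replicates 1 and 2 and then as mean ± SD (n = 2).

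Maintenance genes were among the most abundant. Uhrf1 (ENSMUSG00000001228; chromosome 17, 56303321 to 56323486, plus strand), whose product reads hemimethylated DNA and recruits DNMT1, stood at 375 and 371 TPM, a mean of 373 ± 2.93. It was the highest of the 10, above 98.8% of protein-coding genes in each library. Dnmt1 (ENSMUSG00000004099; chromosome 9, 20907209 to 20959888, minus strand), the maintenance methyltransferase, stood at 182 and 173 TPM, a mean of 178 ± 6.77. The level of Uhrf1 was thus 2.06 and 2.15 times that of Dnmt1 in replicates 1 and 2. Of the 50-base stretches of Uhrf1 transcripts, 15.4% recur in other genes, mostly the processed pseudogene Gm5648, which had 63 and 56 counts against 20105 and 17100 for Uhrf1.

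Among the de novo writers the catalytic gene Dnmt3b and the cofactor gene Dnmt3l stood close together, and Dnmt3a was lower. Dnmt3b (ENSMUSG00000027478; chromosome 2, 153649450 to 153687730, plus strand) had 154 and 160.0 TPM, a mean of 157 ± 4.46. Dnmt3l (ENSMUSG00000000730; chromosome 10, 78041947 to 78063622, plus strand), which encodes a catalytically inactive partner that stimulates DNMT3A and DNMT3B, had 159 and 160.0 TPM, a mean of 159.6 ± 0.556. Their values overlapped between libraries. Dnmt3a (ENSMUSG00000020661; chromosome 12, 3806007 to 3914443, plus strand) had 27.7 and 28.4 TPM, a mean of 28.1 ± 0.507, so Dnmt3b exceeded it 5.54 and 5.62 times.

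The size of that gap depends on the length assigned to Dnmt3a. Its exons add up to 16642 bases, but its longest transcript has 9685, and with longest transcripts the ratio of Dnmt3b to Dnmt3a was 3.84. Embryonic stem cells are known to make a shorter Dnmt3a messenger from a downstream start, and gene counts do not separate isoforms. The germ cell methyltransferase gene Dnmt3c, a recent copy of Dnmt3b, had 12 counts in each library, while 9.81% of the 50-base stretches of Dnmt3b recur in it. Exons of Dnmt3l overlap those of Aire on the opposite strand by 67 bases, 2.24% of its exon length. Aire had 1757 and 1746 counts, against 5991 and 5178 for Dnmt3l, and the strand setting of the counting is not given in the sources used here.

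The TET genes, which encode the enzymes that oxidise 5-methylcytosine, were unequal. Tet1 (ENSMUSG00000047146; chromosome 10, 62804570 to 62908996, minus strand) had 134 TPM in replicate 1 and 154 TPM in replicate 2, a mean of 144 ± 13.8. Tet2 (ENSMUSG00000040943; chromosome 3, 133463679 to 133545139, minus strand) had 29.8 and 33.3 TPM, a mean of 31.6 ± 2.48. Tet3 (ENSMUSG00000034832; chromosome 6, 83362373 to 83459084, minus strand), the form best known from the oocyte and zygote, had 3.82 and 3.55 TPM, a mean of 3.69 ± 0.190, the lowest of the 10.

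Tet1 therefore made up 80.3% ± 0.489 of the summed TET level, Tet2 17.6% ± 0.197 and Tet3 2.07% ± 0.292 (SD, n = 2). The shares depend on the length used. With longest transcripts they were 70.4 and 71.3% for Tet1 in replicates 1 and 2, 26.7 and 26.4% for Tet2, and 2.85 and 2.34% for Tet3. Tet1 has a shorter exon union (15457 bases) than Tet2 (16870) and Tet3 (16695), but a longer longest transcript (14369, against 9179 and 10904). In raw reads, with no length applied, Tet1 took 78.5% of TET counts in replicate 1 and 79.3% in replicate 2. The 95% bounds by the exact method of Clopper and Pearson were 78.1 and 79.0% in replicate 1 and 78.8 and 79.7% in replicate 2. These intervals cover counting error only. Tet1 also led the list in CPM, with 751 (exact Poisson 95% interval 741 to 760) and 864 (853 to 874), because its messenger is long; per length it ranked sixth.

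Tdg and Zfp57 stood at opposite ends. Tdg (ENSMUSG00000034674; chromosome 10, 82629828 to 82650799, plus strand), which excises the oxidised forms that TET enzymes produce, had 15.9 and 19.5 TPM, a mean of 17.7 ± 2.54. That is 0.0950 and 0.103 of the summed TET level in replicates 1 and 2. The level of Tdg is uncertain, because 35.5% of its 50-base stretches recur in other genes, most in the processed pseudogene Tdg-ps (143 and 116 counts, against 1079 and 1137 for Tdg). Zfp57 (ENSMUSG00000036036; chromosome 17, 37001163 to 37010635, plus strand) had 223 and 225 TPM, a mean of 224 ± 1.05, above 97.7 and 97.8% of protein-coding genes. No 50-base stretch of Zfp57, Dnmt3l or Tet2 recurs in the transcripts of another annotated gene read in the same orientation. The opposite strand, where Dnmt3l overlaps Aire, was not searched for any of the 10.

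Ordered by mean TPM, the genes ran from Uhrf1 through Zfp57, Dnmt1, Dnmt3l, Dnmt3b, Tet1, Tet2, Dnmt3a and Tdg to Tet3. The libraries of neighbours overlapped for Dnmt3l and Dnmt3b and for Dnmt3b and Tet1, so these were not separated beyond their spread. The other 7 neighbouring pairs did not overlap, although Tet2 exceeded Dnmt3a only 1.12 times. With longest transcripts as the length, Dnmt3l (206 TPM) passed Dnmt1 (176 TPM), and the other 8 genes kept their places.

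**Figure D2:**
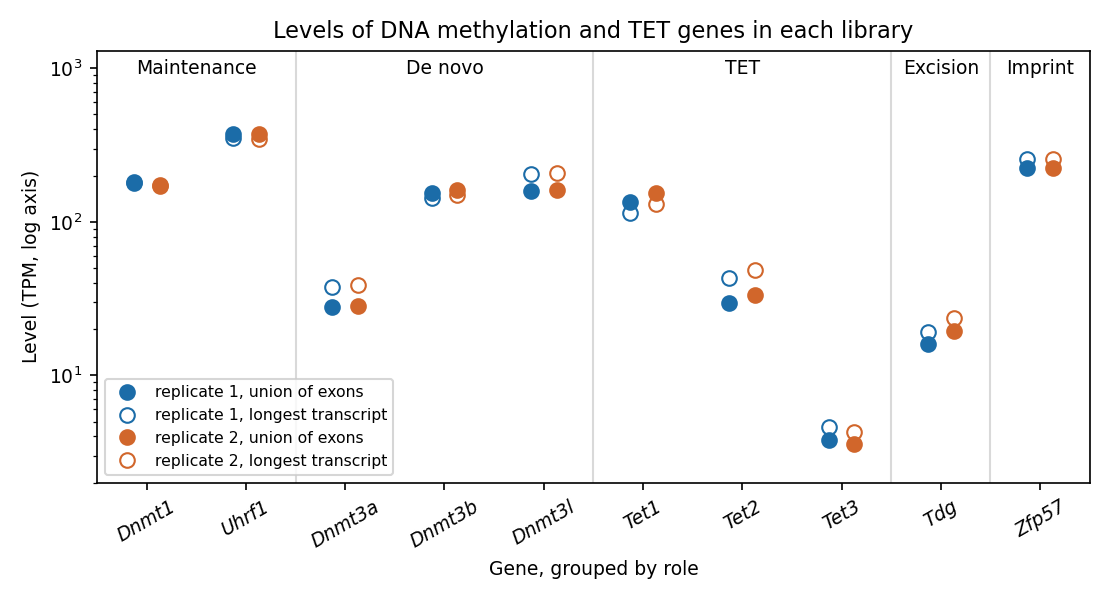
Level of each gene in TPM on a log axis, grouped by role, with 1 point per library and length: filled points use the union of exons and open points the longest transcript, blue is replicate 1 and orange replicate 2. Uhrf1 lies highest at 375 and 371 TPM and Tet3 lowest at 3.82 and 3.55 TPM, and open and filled points differ most for Dnmt3a, Dnmt3l and Tet2.

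The second question was the balance of the roles within each library. The summed level of the catalytic DNMT genes (Dnmt1, Dnmt3a and Dnmt3b) was 364 and 361 TPM, and that of the TET genes 168 and 191 TPM, in replicates 1 and 2. The TET sum was thus 0.461 and 0.528 of the DNMT sum, a mean of 0.495 ± 0.0468 (SD, n = 2). In raw CPM, without length, the same ratio was 1.09, because TET messengers are long. De novo enzymes (Dnmt3a and Dnmt3b) and the maintenance enzyme stood close to each other, with ratios of 0.995 and 1.09. Dnmt3l reached 0.878 and 0.849 of the summed Dnmt3a and Dnmt3b level, or 1.12 with longest transcripts. Of the DNMT sum, Dnmt1 made up 49.0% ± 1.62, Dnmt3b 43.3% ± 1.45 and Dnmt3a 7.75% ± 0.178. RNA levels do not measure protein or enzyme activity.

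**Figure D3:**
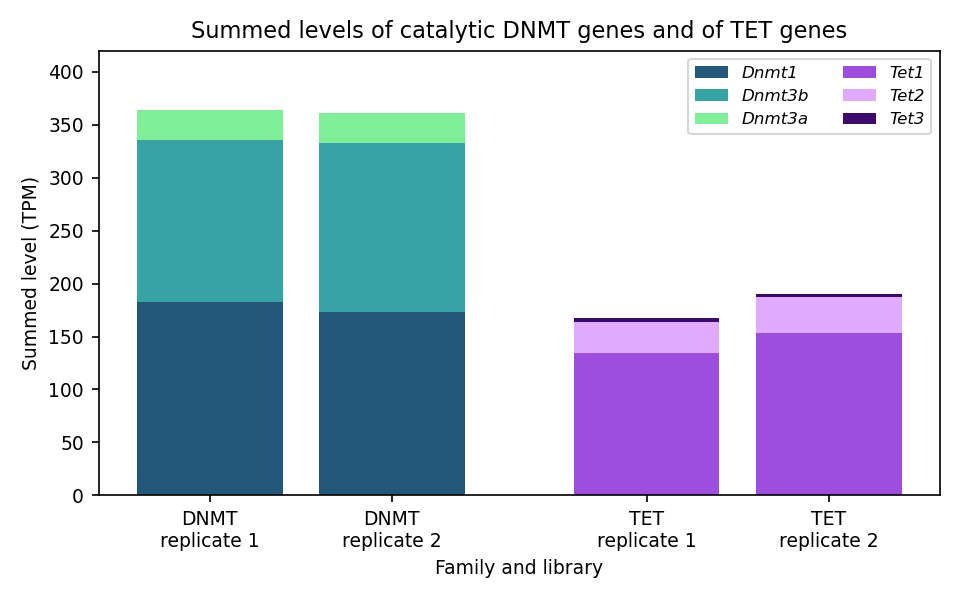
Summed level in TPM (union of exons) of the catalytic DNMT genes and of the TET genes in each library, stacked by gene, with bars starting at 0. The DNMT stacks reach 364 and 361 TPM, nearly all Dnmt1 and Dnmt3b, and the TET stacks reach 168 and 191 TPM, mostly Tet1.

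The third comparison set replicate 2 against replicate 1, gene by gene. It compares the reads of these libraries and not conditions. The two-sided exact binomial test at TMM-scaled library sizes weighs a difference against counting error alone, and its p-values are adjusted by the Benjamini-Hochberg method over all 19078 genes with at least 10 counts. It called 24.2% of all tested genes, and 39.5% of the 8358 genes with at least 1000 counts over both libraries, a depth that all 10 genes reach. Of the 10 genes it called 5, with 4 higher in replicate 2 (11.2% of all tested genes were called in that direction) and 1 lower (13.1%). The median log2 ratio of the 10 genes was 0.03, against -0.01 over all tested genes. The median absolute ratio was 0.07, against 0.09 over the genes with at least 1000 counts. The exact test of edgeR adds the spread between these libraries to counting error, through a trended dispersion. The common biological coefficient of variation, 9.99%, is a summary that the test did not use. EdgeR's exact test called 0 of the 10 genes, 0 at an unadjusted p below 0.05, and 0.456% of all tested genes (0.115% higher and 0.341% lower).

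The genes of oxidation and excision held the largest ratios. Tdg stood 22.9% higher in replicate 2, a log2 ratio of 0.30 ± 0.06 with its counting SE (exact binomial test, adjusted p = 1.79e-05). Tet1 stood 14.9% higher, a log2 ratio of 0.20 ± 0.01 (exact binomial test, adjusted p = 8.28e-54). Tet2 stood 12.1% higher, at 0.17 ± 0.03 (exact binomial test, adjusted p = 5.02e-09). Tet3 did not pass, with 803 and 642 counts, a log2 ratio of -0.10 ± 0.08 and a 95% counting interval of -0.25 to 0.05. Among genes with at least 1000 counts, 93.7% had a smaller absolute ratio than Tdg, 83.8% than Tet1 and 76.3% than Tet2.

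Before any correction for GC content and length, the writers had smaller ratios than Tdg, Tet1 and Tet2. Dnmt1 was lower in replicate 2, at a log2 ratio of -0.07 ± 0.02 (adjusted p = 0.000109, exact binomial test) and Dnmt3b higher by 0.06 ± 0.02 (adjusted p = 0.0161, exact test), both under 5%. Dnmt3a (0.04 ± 0.03), Dnmt3l (0.01 ± 0.03), Uhrf1 (-0.01 ± 0.02) and Zfp57 (0.01 ± 0.02) did not pass. Their 95% counting intervals lay within -0.04 to 0.10, so differences larger than that were outside counting error for these libraries.

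Base composition was set beside these ratios, and its part apart from that of length was not tested. Transcript GC content was 43.7% for Tet1, 45.4% for Tet2 and 47.9% for Tdg, all higher in replicate 2, but 45.8% for Zfp57, which was not called. It was 51.9 to 54.0% for the other 6 genes. After removal of the trend of the ratio on GC content and length over all genes, Tdg stood at 0.29, Tet1 at 0.15 and Tet2 at 0.13, and all 3 passed the exact binomial test (adjusted p = 2.50e-05, 6.50e-30 and 1.69e-05). Dnmt3b moved up from 0.06 to 0.13 (adjusted p = 8.16e-08, exact test), level with Tet2. Dnmt1 went to -0.003 (adjusted p = 0.951, exact test) and was no longer called. Uhrf1 turned to 0.05 and passed (adjusted p = 0.00275, exact test), Dnmt3a passed at 0.08 (adjusted p = 0.0229, exact test), and Zfp57 turned to -0.02 without passing. Ago1 was also higher in replicate 2 (log2 ratio 0.99), and the 8 markers of 2-cell-like cells summed to 484 TPM in replicate 1 and 255 TPM in replicate 2, with 7 of 8 called lower; the part of either in the ratios above was not tested.

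**Figure D4:**
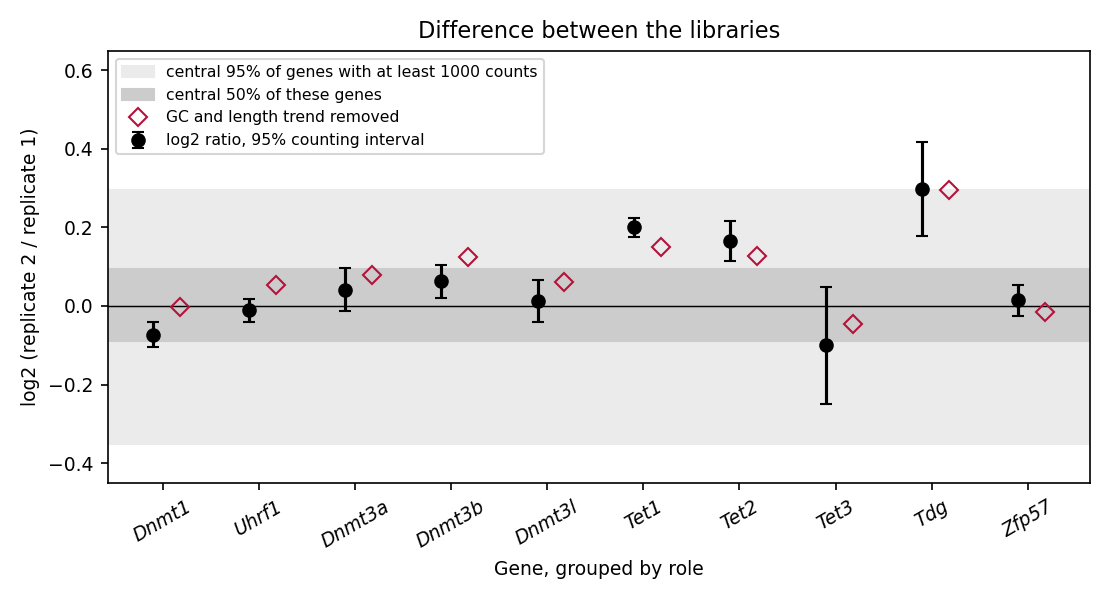
Log2 ratio of replicate 2 to replicate 1 for each gene, with 95% counting intervals (black points) and after removal of the trend on GC content and length (open diamonds); grey bands hold the central 50% and 95% of genes with at least 1000 counts. Tdg (0.30), Tet1 (0.20) and Tet2 (0.17) lie above the inner band, and Dnmt1 moves from -0.07 to -0.003 when the trend is removed.

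The partners of these enzymes were read from 6 lists with 68 genes besides the 10, all found. The exact binomial test called 27 of the 67 tested, 40.3%, near the share of genes with at least 1000 counts, with 15 higher and 12 lower in replicate 2 and a median log2 ratio of 0.02. EdgeR's exact test called 0 of them, with 2 at an unadjusted p below 0.05. The calls of each list below stand beside the shares of all tested genes called by the exact binomial test, 11.2% higher and 13.1% lower. At 1000 counts or more, 39.5% were called in either direction. The levels of the partner genes place the 10 genes among them.

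Maintenance partners were abundant, with 10 of 10 above 1 TPM and a median log2 ratio of 0.06. The replication clamp gene Pcna led at 423 ± 0.394 TPM, followed by Usp7 (222 ± 2.42 TPM), whose product deubiquitinates UHRF1 and DNMT1, and the deacetylase gene Hdac1 (198 ± 4.85 TPM). Pclaf (18.3 ± 0.327 TPM) and the UHRF1 paralogue gene Uhrf2 (10.6 ± 1.08 TPM) were lowest, so Uhrf1 stood far above its paralogue. The test called 4 higher, Uhrf2, Dppa3, Hells and Cdca7, and 1 lower, Lig1. A place on the list does not say whether a product aids or hinders maintenance.

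Methyl-CpG readers were lower, with 9 of 9 above 1 TPM, 1 of 9 called (Zbtb33, higher) and a median log2 ratio of -0.03. Mbd3, a subunit of the NuRD complex that binds methylated DNA poorly, led at 158 ± 4.31 TPM, and Mbd2 (25.5 ± 1.24 TPM) and Mbd6 (22.7 ± 1.13 TPM) followed. Mbd5 (2.30 ± 0.189 TPM) and Zbtb4 (2.08 ± 0.0395 TPM) were lowest.

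Of the genes of excision repair that act with or after TDG, 13 of 14 were above 1 TPM. Parp1 (474 ± 5.86 TPM), the endonuclease gene Apex1 (358 ± 6.47 TPM) and the uracil glycosylase gene Ung (49.9 ± 3.58 TPM) led, all above Tdg. Neil3, a glycosylase gene, stood at 2.28 ± 0.138 TPM. The test called 1 higher (Ung) and 3 lower (Smug1, Xrcc1 and Apobec1), with a median log2 ratio of -0.07.

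Modulators of the TET and DNMT3 enzymes had 13 of 15 genes above 1 TPM, with 2 called higher, 4 lower and a median log2 ratio of 0.04. Idh2 (189 and 145 TPM in replicates 1 and 2), which makes the TET cosubstrate 2-oxoglutarate in mitochondria, the histone methyltransferase gene Ehmt2 (132 ± 5.69 TPM) and Ogt (102 ± 6.87 TPM), whose product binds TET proteins, led. Dnmt3c (0.464 ± 0.0493 TPM) and the TET2-binding factor gene Cxxc4 (7 and 8 counts) were lowest.

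For the methyl donor S-adenosylmethionine, 10 of 11 genes were above 1 TPM, led by Shmt2 (322 ± 22.3 TPM), the synthetase gene Mat2a (240.2 and 286 TPM) and Mthfd1 (208 ± 5.99 TPM). The test called 2 higher and 3 lower, with a median log2 ratio of -0.01. Gnmt had 89 and 41 counts and the liver synthetase gene Mat1a 0 and 1. Among genes that act with ZFP57 or guard imprints, 8 of 9 were above 1 TPM. The exact binomial test called 5 higher and 1 lower (median 0.05), beside 11.2% and 13.1% of all tested genes. Trim28 (947 ± 30.5 TPM), the co-repressor that ZFP57 recruits, Zfp42 (714 ± 15.6 TPM) and Cbx5 (259 ± 18.1 TPM), the gene of HP1 alpha, led. Zfp445, a second imprint guardian, stood at 16.4 ± 1.41 TPM, far below Zfp57, and Zfp202 had 17 and 12 counts.

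**Figure D5:**
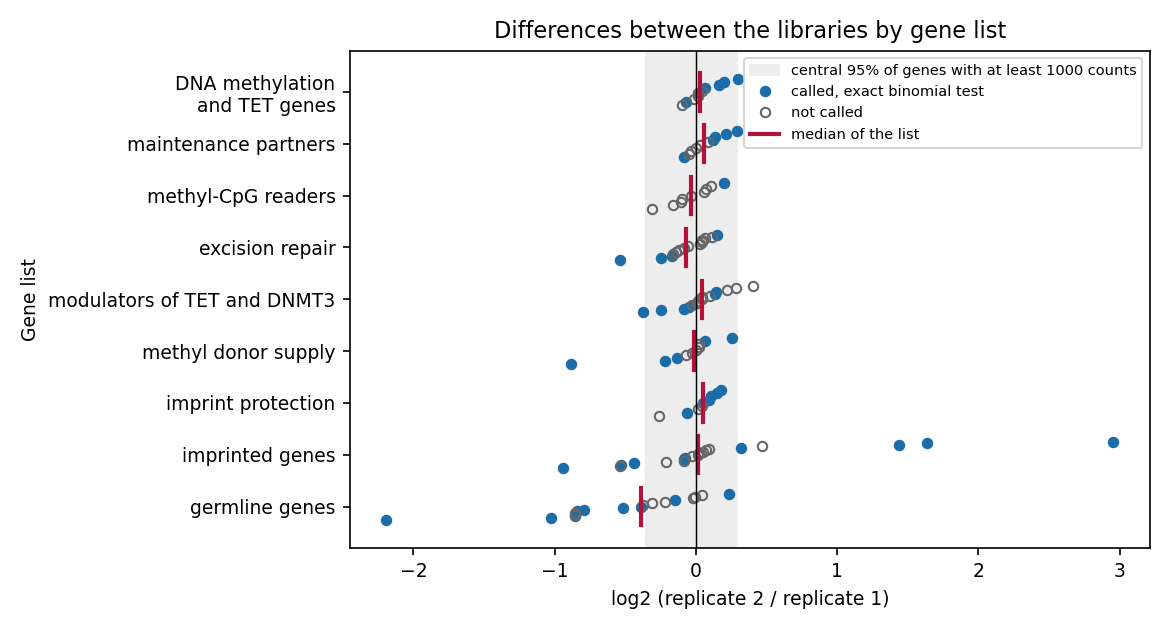
Log2 ratio of replicate 2 to replicate 1 for each tested gene of 9 lists; filled points passed the exact binomial test, open points did not, red bars are list medians and the grey band holds the central 95% of genes with at least 1000 counts. The medians of the 10 genes and of their 6 partner lists lie between -0.07 and 0.06, and that of the germline genes lies at -0.39.

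The start sites of the 10 genes differ in their own CpG content. In RefSeq windows (GRCm38.p6) from 250 bases before to 50 after a start, 20004 windows of protein-coding genes held a median of 14 CpG pairs, with quartiles of 4 and 25. Tet2 held 57, more than 99.8% of these windows, and the upstream starts of Dnmt3a held 46 and 47. The downstream start of Dnmt3a held 18. Tdg held 26, Dnmt3b 30, Tet3 22 and Tet1 17, and the richest of several windows held 33 for both Dnmt1 and Uhrf1. The 3 windows of Dnmt3l held 3 to 6 and the 3 windows of Zfp57 held 4 to 9. Dnmt3l and Zfp57 were thus transcribed at 159.6 and 224 TPM from genes whose annotated starts were all below the median in CpG. Methylation itself was not measured.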

How the data were processed

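PolyA RNA of 2 libraries of 1 genotype was profiled. Per the deposited files, values are unnormalized counts of reads for each Ensembl gene, all whole numbers. STAR 2.4.2a and the builds mm10 and GRCm38 are named in the submitters' processing notes; the tool that counted reads, its strand setting and annotation were not given in the sources used here. Of 47643 gene IDs, 47224 were named with GENCODE M21 (GRCm38); the other 419 held 0.116 and 0.124% of counts and stayed in the totals.

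CPM used library totals, and TPM the union of exons. Replicate 2 was set against replicate 1 with a two-sided exact binomial test (scipy 1.17.1) at sizes scaled by TMM factors of edgeR 4.0.16, a pseudocount of 0.5 counts in log2 ratios, at least 10 counts in total and an adjusted p threshold of 0.05. The unit of precision is the count: 3 counts, the floor, equal 0.0862 and 0.101 CPM. Alternatives were DESeq2 1.42.0 size factors, no TMM factor, edgeR's exact test with a trended dispersion, other count filters and pseudocount, removal of the trend on GC content and length (lowess, fraction 0.3), longest transcripts, and CPM. The exact binomial test and the trend removal were run on simulated data first, and edgeR's exact test was not. The simulated counts held sampling noise, with or without a GC trend, and not the wider spread between these libraries. The genes, the lists and the tests were chosen with earlier results of these data known, and the seed matches and the share of calls at 1000 counts after the values were seen. Of each partner, imprinted and germline list the 3 highest and 2 lowest genes in TPM and genes called by both tests are named, except 1 gene that is not reported here. Marker lists, under the same rule, are given mainly as sums and counts. Other genes were named after their values were seen.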

Additional observations from a re-analysis of the deposited data

How the results depend on the processing

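No paired analysis was possible because the 2 libraries form 1 group. The 5 calls among the 10 genes (4 higher and 1 lower in replicate 2) became 6 with the GC and length trend removed (6 higher and 0 lower). In that setting 21.2% of all tested genes were called, 2048 higher and 2000 lower. The 27 calls among partners became 23 (15 higher and 8 lower). EdgeR's exact test, whose dispersion includes the differences it tests, called 0 of the 10 genes, 0 of the partners and 0.456% of all tested genes. Scaling, count filters and pseudocount left 5 calls among the 10 genes. With the trend removed the log2 ratio of Uhrf1 reversed to 0.0541 and that of Zfp57 to -0.0160; which of GC content and length acts was not tested.

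The gene length set the levels. The median over the 10 genes was 150.4 TPM, 134 with longest transcripts and 242 in CPM. The TET to DNMT ratio was 1.09 in CPM and 0.343 with Dnmt3l among the writers. With longest transcripts the ratio was 1.12 for Dnmt3l to Dnmt3a and Dnmt3b, 1.99 for Uhrf1 to Dnmt1, 0.124 for Tdg to the TET sum, 3.84 for Dnmt3b to Dnmt3a, 2.67 for Tet1 to Tet2 and 10.3 for Tet2 to Tet3. In CPM, with no length, it was 0.970 for de novo to maintenance, 0.376 for Dnmt3l, 1.21 for Uhrf1, 0.0337 for Tdg, 1.71 for Dnmt3b to Dnmt3a and 4.18 for Tet1 to Tet2. Leaving out a replicate gave 144 to 157 TPM for the median and 0.461 to 0.528 for the TET to DNMT ratio. Depth limits Tet3 and Tdg most.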

Other observations

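Genes known to depend on DNA methylation were read from further lists. Of 19 imprinted genes, the exact binomial test called 4 higher and 5 lower in replicate 2, where 11.2% and 13.1% of all tested genes were called higher and lower, at a median log2 ratio of 0.02. EdgeR's exact test called 2, both higher, where it called 0.115% of all tested genes higher and 0.341% lower. They were Nnat (11 and 76 counts, a log2 ratio of 2.96) and the growth inhibitor gene Cdkn1c (193 and 514 counts, 1.63). Peg10 (122 and 152 TPM), Grb10 (84.7 ± 0.476 TPM) and Snrpn (62.6 ± 2.69 TPM) were the most abundant, and Dlk1 (0.443 ± 0.0490 TPM) and Plagl1 (0.350 ± 0.0941 TPM) the least.

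Of 18 germline genes whose promoters are known to be sensitive to methylation, 17 were tested, 8 were lower in replicate 2 and 1, Sycp3, was higher in the exact binomial test, beside the same 13.1% lower and 11.2% higher over all tested genes. Their median log2 ratio was -0.39, against -0.01 over all tested genes. The homeobox gene Rhox5 (361 ± 2.12 TPM), Tuba3a (347 and 193 TPM) and Tex19.1 (99.8 ± 7.57 TPM) led the list, Brdt had 9 and 4 counts, and Asz1 had none. Tuba3a (-0.84) and Tuba3b (-2.19) were also called lower by edgeR's exact test, which called 0.341% of all tested genes lower. These alpha-tubulin genes belong to a family of close copies and their counts are uncertain. Hormad1, a meiotic chromosome axis gene, had 672 and 318 counts (adjusted p = 0.0832 by edgeR's exact test). Markers of 2-cell-like cells were lower in replicate 2 as well, 7 of 8 in the exact binomial test (13.1% of all tested genes) and 4 of 8 in edgeR's exact test (0.341%), at a median log2 ratio of -0.85. The 4 were Zscan4c (-0.95), Zscan4d (-0.91), Zscan4f (-1.02) and Gm8300 (-0.77), and the Zscan4 genes are close copies with uncertain counts. The part of 2-cell-like cells in the ratios of the germline genes was not tested.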
